A study of Mus musculus with 10 samples.

Results

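The genes described here encode membrane-anchored and closely related serine proteases, together with the Kunitz inhibitors that control them. They are the enzymes St14, Prss8, Prss22, Tmprss2, Tmprss4 and Tmprss13 and the inhibitors Spint1 and Spint2, 8 of the 22114 protein-coding genes counted in first pharyngeal arch (PA1) tissue of mouse embryos. They were chosen from their family membership and from their levels in these same arches, with the difference between the genotypes already known. Their levels and differences are therefore given as a description, without a test, and only genes outside the group are tested.

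The study compared RNA from the PA1, the embryonic structure that forms the upper and lower jaw, of 5 wild-type (WT, Grhl2+/+) and 5 Grhl2-/- embryos at E10.5, in mid-gestation. All 10 embryos were male and on a C57BL/6 background. The Grhl2-null allele is present in every cell of the Grhl2-/- embryos, and the line was kept by crossing heterozygotes. Each whole arch, with its epithelium, mesenchyme, vessels, blood and nerves, gave 1 library, so fewer cells of a type and less RNA per cell cannot be told apart.

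Matriptase, the product of St14, is a type II transmembrane protease of epithelial cells that is made as an inactive zymogen. It acts together with prostasin, the product of Prss8, which is held at the cell surface by a lipid anchor, and the pair is known for its part in epithelial barriers and in neural tube closure. The inhibitors HAI-1 (Spint1) and HAI-2 (Spint2) are transmembrane proteins whose Kunitz domains block these enzymes, and embryos that lack them fail unless matriptase activity is lowered as well. Grhl2 encodes Grainyhead-like 2, a transcription factor of epithelia that binds AACCGGTT and related sequences.

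The libraries held 22188454 to 28801378 counted reads, and a count of 3 reads, used as a floor, corresponded to a CPM of 0.104 to 0.136, where CPM is the read count scaled to library size by the TMM method. Grhl2 itself, the check of the labels, was at 31.8 to 40.5 CPM in WT and at 2.80 to 6.33 CPM in Grhl2-/- arches. Markers of arch mesenchyme and of epithelium were present. The 7 mesenchyme markers summed to 1682 to 2002 CPM in WT and 1495 to 1969 CPM in Grhl2-/- arches. By limma-voom 1 of them, Msx1, was lower (log2 fold change -0.66, FDR 0.00595), while Vim was at 0.64 (FDR 0.0535). By edgeR 1 and by DESeq2 2 were lower, and 0 higher by both. At an unadjusted limma-voom p under 0.05, 3 were lower and 1 higher. The 5 endothelial markers summed to 286 to 321 CPM in WT and 324 to 380 CPM in Grhl2-/- arches, without overlap, and 0 passed by limma-voom or edgeR, 2 were higher by DESeq2 and 4 were higher at an unadjusted limma-voom p under 0.05. Of all 14561 genes tested, 14.3% were lower and 14.2% higher at that unadjusted p. The 4 primitive erythroid markers summed to 3595 to 6108 CPM in WT and 2828 to 3825 CPM in Grhl2-/- arches (median log2 fold change -0.34), with 0 passing by limma-voom, edgeR or DESeq2 and 3 lower at the unadjusted p. The summed level of 12 epithelial markers was 360 to 475 CPM in WT and 212 to 298 CPM in Grhl2-/- arches. By limma-voom at a false discovery rate (FDR) below 0.01, 6 of these 12 were lower (Cdh1, Epcam, Krt5, Cldn6, Esrp1 and Perp) and 0 higher, with a median log2 difference of -1.01. Over all genes tested 1.09% were lower and 0.879% higher at this FDR. By edgeR 6 and by DESeq2 7 of the 12 were lower, and 0 higher by both. At the unadjusted p 8 were lower and 1 was higher, Krt14 (log2 fold change 0.33). A list of 9 sensory neuron genes summed to 42.3 and 38.1 CPM in the WT arches named WT1-566 and WT1-568, against 452 to 719 CPM in the other 3 WT and 246 to 901 CPM in the Grhl2-/- arches. By limma-voom, edgeR and DESeq2 alike 0 of its 9 genes passed at that FDR, with 0 lower and 1 higher at an unadjusted limma-voom p under 0.05 and a median log2 fold change of 1.9. The part of any of these lists in the results was not tested. Without WT1-566 and WT1-568 the log2 fold changes described here were -2.88 for St14, -2.54 for Prss8, -3.34 for Tmprss2, -0.92 for Spint1 and -0.63 for Spint2, against -2.90, -2.56, -3.16, -0.93 and -0.63 with them.

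The promoters of the inhibitors are shown because Spint1 and Spint2 differed least between the genotypes. The 250 bases before the RefSeq transcription start (GRCm38.p6) are printed from 5′ to 3′, with capitals marking CAGGTG, the core E-box letters read by ZEB and SNAI repressors. Spint1 lies at chr2:119237110-119237359 (plus strand) and Spint2 at chr7:29281978-29282227 (minus strand).
Spint1: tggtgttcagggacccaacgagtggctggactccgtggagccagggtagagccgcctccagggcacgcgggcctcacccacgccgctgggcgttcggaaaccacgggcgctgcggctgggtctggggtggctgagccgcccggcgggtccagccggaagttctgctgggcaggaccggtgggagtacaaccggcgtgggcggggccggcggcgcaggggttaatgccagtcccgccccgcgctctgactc
Spint2: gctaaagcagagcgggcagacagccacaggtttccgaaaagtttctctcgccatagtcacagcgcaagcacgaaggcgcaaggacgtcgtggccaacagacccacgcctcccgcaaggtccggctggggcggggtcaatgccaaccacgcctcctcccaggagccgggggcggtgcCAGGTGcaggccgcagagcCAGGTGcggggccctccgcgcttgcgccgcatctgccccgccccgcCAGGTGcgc

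Spint2 held 3 copies of CAGGTG on the gene's strand, at bases 74 to 69, 55 to 50 and 9 to 4 before the start. Both strands were searched in every window, and CAGGTG occurred in 17.2% of 32851 mouse promoter windows of the same length. A count of 3 or more copies, chosen as a measure after the Spint2 sequence had been seen, occurred in 0.247%. The Grainyhead-like letters AACCGGTT occurred in 0.116% of windows and the looser AACNNGTT, which includes them, in 3.64%. None of these letters occurred in the Spint1 window, nor in that of Tmprss2, and Spint2 held neither of the Grainyhead-like strings. Windows for the other 5 genes were not used here. A match of letters is a description of the sequence and not a binding site.

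Each gene was placed on GRCm38 by the GENCODE annotation. St14 lies at chr9:31089402-31131853 (minus strand) and Prss8 at chr7:127925716-127930104 (minus strand). Prss22 spans chr17:23993534-23998100 (minus strand) and Tmprss2 chr16:97564682-97611195 (minus strand). Tmprss4, at chr9:45172726-45204092 (minus strand), and Tmprss13, at chr9:45319100-45347581 (plus strand), are near neighbours, 115007 bases apart with 1 protein-coding gene, Il10ra, between them. The gene spans of Spint1 and Spint2 are chr2:119237362-119249527 (plus strand) and chr7:29256323-29281912 (minus strand). Exons of 3 of the 8 genes overlap a gene on the opposite strand, namely 6.59% of the exon bases of Prss8 (with Kat8), 15.9% of Tmprss4 (Gm17099) and 1.73% of Tmprss13 (1700003G13Rik). The libraries kept strand information.

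Expression of the group in WT arches covered a wide range, with the inhibitors and the matriptase-prostasin pair at the top. Levels between genes were compared as CPM per kilobase of exon (mean ± SD, n = 5). Spint1 at 5.75 ± 0.435 and Prss8 at 5.71 ± 0.925 were highest, and their ranges overlapped. Spint2 at 3.90 ± 0.818 and St14 at 3.54 ± 0.282 followed, again with overlapping ranges, and every Spint2 value lay below every Prss8 value. Tmprss13 at 0.838 ± 0.126 and Prss22 at 0.711 ± 0.205 CPM per kilobase came next and overlapped each other. Tmprss2 at 0.133 ± 0.0481 was lower again, and Tmprss4 at 0.0241 ± 0.0167 rested on 8 reads in all 5 WT arches.

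**Figure D1:**
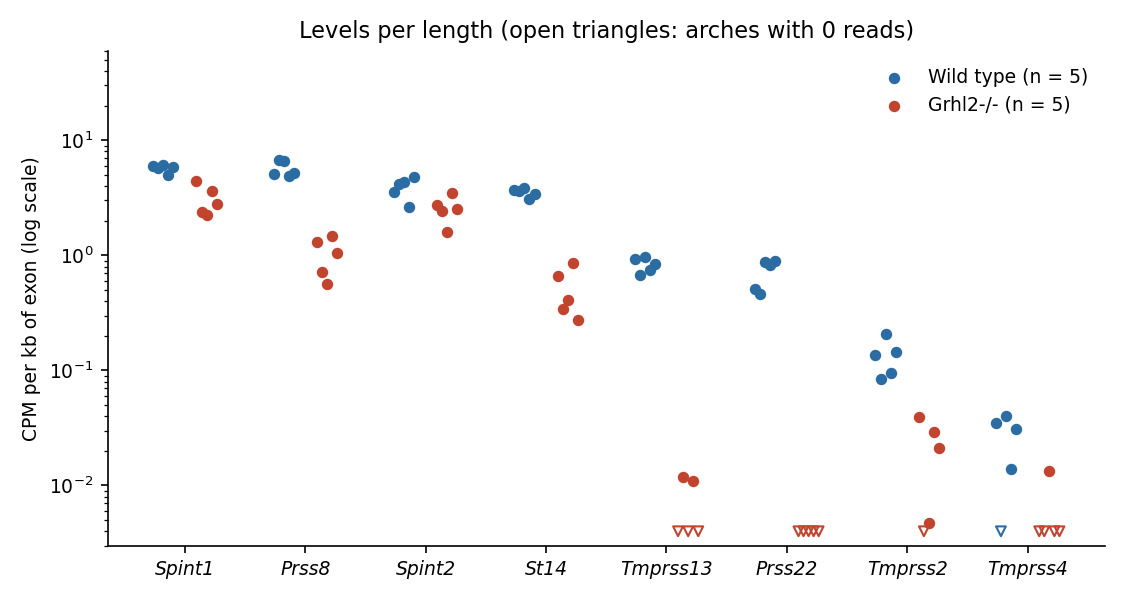
Level of each gene in CPM per kilobase of exon on a log axis, 1 point per arch, WT in blue and Grhl2-/- in red (n = 5 each), with open triangles for arches with 0 reads. Genes run in the order of their WT means, from Spint1 at 5.75 to Tmprss4 at 0.0241, and the red points of Spint1 and Spint2 stay above those of all 6 enzymes.

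The order was different in Grhl2-/- arches, where both inhibitors stood above every enzyme. Spint1 was at 3.10 ± 0.924 and Spint2 at 2.56 ± 0.694 CPM per kilobase, while Prss8 was at 1.02 ± 0.382 and St14 at 0.510 ± 0.248. All 8 genes had lower means in Grhl2-/- than in WT arches. In 6 of the 8, every Grhl2-/- arch lay below every WT arch, the exceptions being Spint2 and Tmprss4. Over the 14561 genes tested this held for 4.66%. Since the genes were chosen from this contrast, nothing is read from the comparison of those shares.

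St14 encodes matriptase, the enzyme at the centre of this group. Its level was 28.3, 27.6, 29.3, 23.8 and 26.1 CPM in the WT arches WT1-566, WT1-568, WT3-588, WT5-566 and WT8-568, an order kept for the values that follow. In the Grhl2-/- arches KO1-588, KO1-628, KO2-566, KO2-568 and KO3-604 it was 5.07, 2.60, 3.12, 6.62 and 2.09 CPM. On a log2 scale the WT arches were tightly grouped (range 0.30), whereas the Grhl2-/- arches were spread (range 1.66). KO2-568 and KO1-588 were the highest Grhl2-/- arches and KO3-604 the lowest. The mean was 27.0 ± 2.15 CPM in WT and 3.90 ± 1.89 CPM in Grhl2-/- arches (SD, n = 5), a log2 fold change of -2.90 (SE 0.221) in limma-voom.

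Prss8 encodes prostasin, which matriptase can activate and which in turn acts on matriptase and on the epithelial sodium channel. It was at 9.36, 12.6, 12.3, 9.01 and 9.61 CPM in WT arches. In Grhl2-/- arches it was at 2.43, 1.32, 1.04, 2.70 and 1.93 CPM. The same pair of Grhl2-/- arches was highest for Prss8 as for St14, but the lowest was KO2-566. The means were 10.6 ± 1.71 and 1.88 ± 0.708 CPM, a log2 fold change of -2.56 (SE 0.236). The ratio of St14 to Prss8, in CPM per kilobase, was 0.533 to 0.735 (median 0.640) in WT and 0.262 to 0.728 (median 0.506) in Grhl2-/- arches, so the ranges of this ratio overlapped.

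Tmprss13, a type II transmembrane protease of the skin and other surface epithelia, and Prss22, tryptase epsilon, were at or near 0 reads in every Grhl2-/- arch. Prss22 is a secreted relative rather than a membrane-anchored enzyme. Tmprss13 had 67, 61, 91, 67 and 68 reads in the WT arches. In the Grhl2-/- arches it had 0, 1, 0, 1 and 0 reads. That made 354 reads against 2, a ratio of 185 after scaling, with a 95% counting interval of 50.9 to 1534. The interval covers counting error alone. The ratio rests on those 2 reads, in KO1-628 and KO2-568, and was 301 without KO1-628 and 294 without KO2-568. Prss22 had 15, 17, 33, 30 and 29 reads in WT arches and 0 in each Grhl2-/- arch. The WT mean of 0.941 ± 0.272 CPM was at least 8.56-fold higher than the floor of 3 reads per library in the Grhl2-/- arches. WT1-566 and WT1-568, at 0.681 and 0.611 CPM, were below the 1.09 to 1.17 CPM of the other 3 WT arches, and without them the bound was 10.4-fold.

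Tmprss2, an androgen-regulated type II transmembrane protease best known for priming viral spike proteins, was scarce in both genotypes. It had 22, 17, 43, 19 and 26 reads in WT arches. In Grhl2-/- arches it had 8, 0, 1, 6 and 4 reads. The groups did not overlap in CPM, at 0.611 to 1.50 in WT and 0 to 0.285 in Grhl2-/- arches. The total of 127 reads against 19 gave a scaled ratio of 6.99 (95% counting interval 4.30 to 12), and the log2 fold change in limma-voom was -3.16 with the largest SE of the 5 genes given one, 0.620. With a prior count of 2 in place of 0.5 it was -2.48. Tmprss4 had 2, 0, 3, 1 and 2 reads in WT and 0, 0, 1, 0 and 0 in Grhl2-/- arches. It did not reach the filter of 10 reads in at least 1 arch, which the other 7 genes passed, and since both groups were at or under the floor no fold is given.

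**Figure D2:**
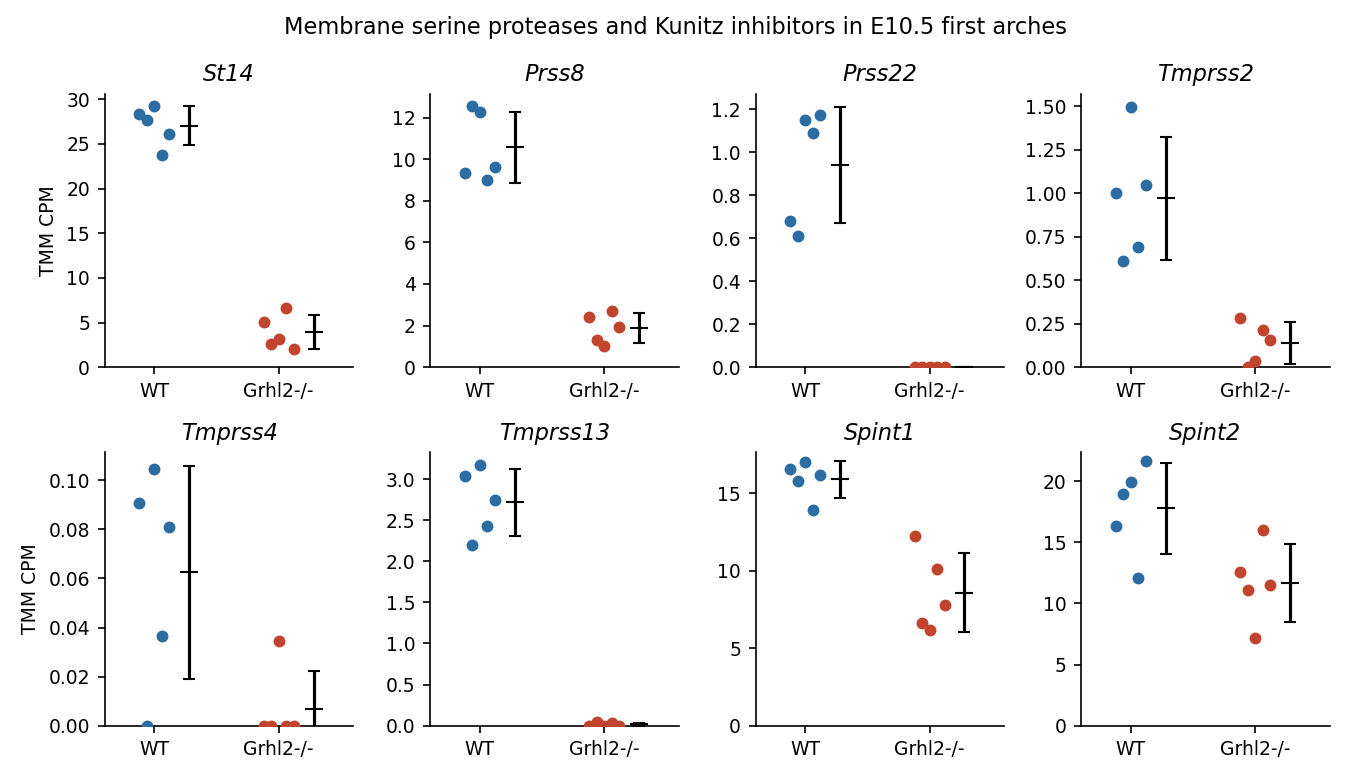
Level of each of the 8 genes in TMM-scaled CPM, 1 point per arch, WT in blue and Grhl2-/- in red, with the mean and SD of 5 arches beside each group (each axis starts at 0 and has its own range). The groups are separate for 6 genes, while Spint2 overlaps and Tmprss4 stays at 3 reads or fewer per arch.

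The Kunitz inhibitors differed less between the genotypes than the enzymes. Spint1 encodes HAI-1, the main inhibitor of matriptase in many epithelia. It was at 16.6, 15.8, 17, 13.9 and 16.2 CPM in WT arches. In Grhl2-/- arches it was at 12.3, 6.62, 6.20, 10.1 and 7.76 CPM. Every Grhl2-/- value was below every WT value, although KO1-588 came close to WT5-566. The means were 15.9 ± 1.20 and 8.59 ± 2.56 CPM, a log2 fold change of -0.93 (SE 0.157).

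Spint2 encodes HAI-2, which also inhibits prostasin and is needed for neural tube closure and placental development. It was at 16.4, 18.9, 19.9, 12.1 and 21.7 CPM in WT arches. In Grhl2-/- arches it was at 12.6, 11.1, 7.20, 16.0 and 11.5 CPM. The groups overlapped, because WT5-566 lay below KO1-588 and KO2-568. The means were 17.8 ± 3.73 and 11.7 ± 3.16 CPM, a log2 fold change of -0.63 (SE 0.206). Without WT5-566 the groups did not overlap, and the number of genes with separate groups was then 7 in place of 6. It was also 7 without WT1-568, the 1 WT arch with 0 reads of Tmprss4. That separation rests on 1 read in WT5-566 against 1 read in KO2-566 (0.0363 and 0.0346 CPM with all arches kept), under the floor of 3 reads.

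The ratio of enzyme to inhibitor transcripts was lower in Grhl2-/- arches for every enzyme and inhibitor compared and was taken within each arch. These ratios are not affected by library scaling. St14 over Spint1, in CPM per kilobase, was 0.619, 0.635, 0.622, 0.619 and 0.585 in WT arches. It was 0.150, 0.142, 0.182, 0.237 and 0.0973 in Grhl2-/- arches. The WT ratios lay within a narrow band and all 5 Grhl2-/- ratios were well under it. St14 over Spint2 was 0.720 to 1.18 (median 0.878) in WT and 0.108 to 0.258 (median 0.240) in Grhl2-/- arches. Prss8 over Spint1 was 0.843 to 1.19 (median 0.967) against 0.250 to 0.400 (median 0.297). Prss8 over Spint2 was 1.09 to 1.84 (median 1.52) against 0.291 to 0.474 (median 0.414). None of these 4 ratios overlapped between the genotypes. The sum of the 6 enzymes over the sum of the 2 inhibitors was 0.992 to 1.26 (median 1.18) in WT and 0.220 to 0.330 (median 0.258) in Grhl2-/- arches. The inhibitors kept a closer relation to each other, since Spint1 over Spint2 was 1.23 to 1.90 in WT and 0.981 to 1.60 in Grhl2-/- arches, with overlap. These are ratios of transcripts, and protein or enzyme activity was not measured in these data.

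**Figure D3:**
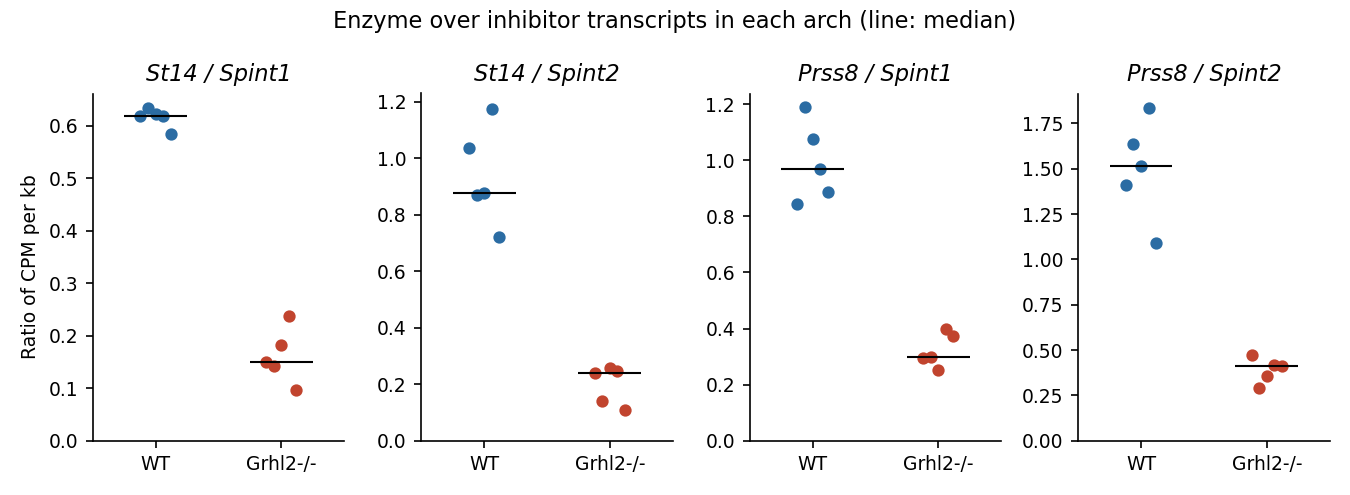
Ratio of an enzyme transcript to an inhibitor transcript in CPM per kilobase within each arch, WT in blue and Grhl2-/- in red (n = 5 each), with a line at the median. For St14 over Spint1 the WT median was 0.619 and the Grhl2-/- median 0.150, and the groups are separate in all 4 panels.

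Because the epithelial marker list was itself lower in Grhl2-/- arches, each gene was set beside epithelial reference genes in the same arch, as a difference of log2 CPM. Relative to the E-cadherin gene Cdh1, the median of St14 differed by -0.45 between the genotypes (Grhl2-/- minus WT), that of Prss8 by -0.06 and that of Tmprss2 by -0.17, and for all 3 the ranges overlapped. Relative to Epcam the values were -0.43, -0.09 and -0.05, again with overlap. The Grhl2-/- range of Tmprss2 relative to Cdh1 was wide, at -8.60 to -4.98, since it had 0 and 1 reads in a pair of arches, where the prior count sets much of the value. On this scale the medians of Prss8 and Tmprss2 lay close to the adhesion genes. The Grhl2-/- median of St14 lay below every WT value, at -1.07 against -0.88 to -0.52 relative to Cdh1. Relative to Epcam it was -1.40 against -1.14 to -0.90. Tmprss13 and Prss22, at 2 and 0 reads in Grhl2-/- arches, were not set beside the adhesion genes. The inhibitors did not lie close, with Spint1 higher by 1.31 relative to Cdh1 and 1.58 relative to Epcam, and Spint2 by 1.89 and 2.0, all without overlap.

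Simple epithelial keratins gave a different reference. Krt8, Krt18 and Krt19 had log2 fold changes of -0.40, -0.07 and 0.02, with limma-voom FDR of 0.203, 0.848 and 0.951. Relative to the mean of these keratins, the medians differed by -2.79 for St14, -2.41 for Prss8, -2.51 for Tmprss2, -0.91 for Spint1 and -0.15 for Spint2. None of these 5 ranges overlapped, although for Spint2 the gap was small, from -0.98 at the lowest WT arch to -1.03 at the highest Grhl2-/- arch. The values relative to epithelium depended on which epithelial genes were taken as the reference.

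**Figure D4:**
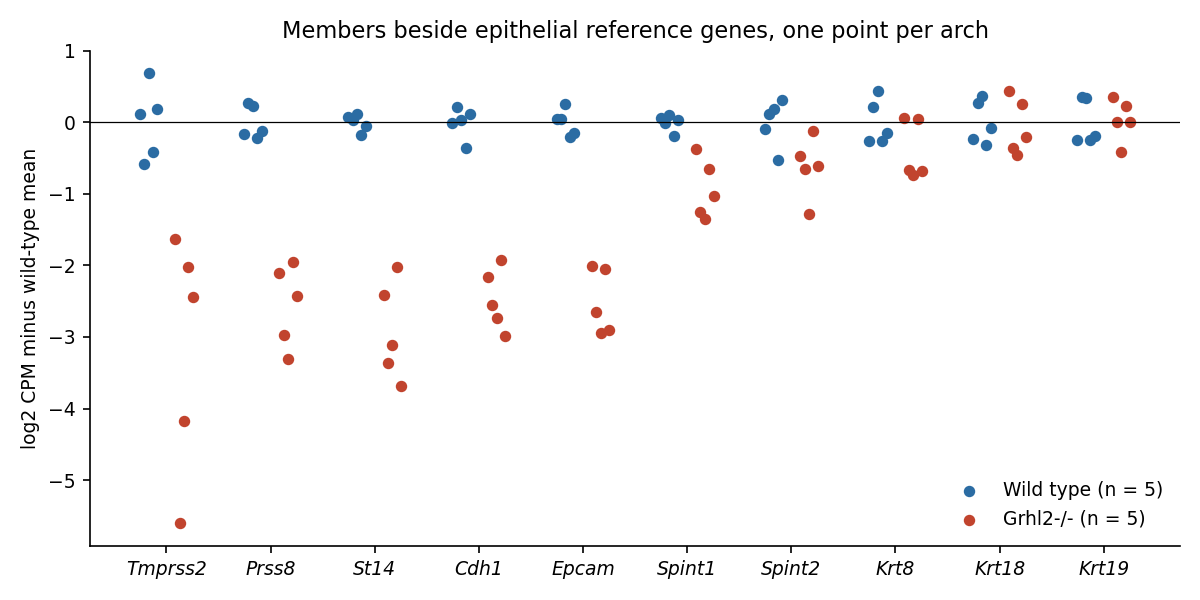
Level of 5 of the genes and of 5 epithelial reference genes in each arch, as log2 CPM minus the WT mean of the gene, WT in blue and Grhl2-/- in red (n = 5 each). The red points of St14, Prss8 and Tmprss2 lie well below 0, as do those of Cdh1 and Epcam. The Tmprss2 points of KO1-628 (0 reads) and KO2-566 (1 read) lie lowest. Krt18 and Krt19 lie around 0. The red points of Spint1, Spint2 and Krt8 lie mostly below 0 but above those of Cdh1 and Epcam.

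The Grhl2-/- arches also differed among themselves in a shared way. KO1-588 and KO2-568 were the 2 highest Grhl2-/- arches in 10 of 10 genes compared, which were St14, Prss8, Tmprss2, Spint1, Spint2, Cdh1, Epcam, Krt8, Krt18 and Krt19. Cdh1, Epcam, Krt8, Krt18 and Krt19 are also part of the epithelial marker sum. That sum was 298 and 290 CPM in KO1-588 and KO2-568 and 212 to 224 CPM in the other 3. Their sensory neuron sums were 246 and 271 CPM, against 655 to 901 CPM in the others. Neural crest glia markers summed to 72.7 and 82.7 CPM, against 147 to 196 CPM, and arch mesenchyme markers to 1495 and 1693 CPM, against 1758 to 1969 CPM. The part of these differences in tissue make-up was not tested. No pair of WT arches was highest in more than 5 of the 10 genes.

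The genes with the most similar profiles over the 10 arches were found by the root mean square difference of centred log2 CPM, which includes the difference between the genotypes. For St14 they were Ildr1 (0.250), a tricellular junction receptor, Epcam (0.305) and Cdh1 (0.311), against a median of 1.54 over all 14554 genes searched. For Prss8 they were Epcam (0.239), Grhl2 (0.280) and Kdf1 (0.300), a regulator of keratinocyte differentiation, against a median of 1.35. For Spint1 they were Marveld2 (0.118), which encodes the tight junction protein tricellulin, the lipid carrier gene Stard10 (0.131) and Cdcp1 (0.149), against a median of 0.568. For Spint2 they were the peptide transporter gene Tap1 (0.155), Wnt4 (0.170) and Rgs14 (0.194), against a median of 0.486. The remaining 4 genes had too few reads for this measure.

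The wider pathway was then examined through 3 lists of other genes, with limma-voom FDR adjusted over all 14561 genes tested. At FDR below 0.01, 158 of all genes (1.09%) were lower and 128 (0.879%) higher in Grhl2-/- arches, and the median log2 fold change of all genes was 0.01. At an unadjusted p under 0.05 the shares were 14.3% and 14.2%. The lists were drawn up with earlier results of these data known.

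Other membrane-anchored serine proteases were mostly at or near 0 reads in the PA1. Of 24 genes found in the table from 25 listed, 18 did not pass the filter and had at most 7 reads in any arch, among them most of the Tmprss11 family. Of the 6 tested, 0 passed in either direction by limma-voom, edgeR or DESeq2, and at an unadjusted p under 0.05 there was 1 lower and 1 higher. Their median log2 fold change was 0.14. These were Hpn, which encodes hepsin, and Corin, the protease that processes natriuretic peptides, both singled out after their values had been seen. Hpn was at 4.29 ± 1.53 CPM in WT and 2.24 ± 0.838 CPM in Grhl2-/- arches (log2 fold change -0.96, limma-voom FDR 0.0717), and Corin at 0.804 ± 0.397 and 1.28 ± 0.434 CPM (0.74, FDR 0.158).

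Other inhibitors of trypsin-like proteases gave 12 tested genes of 18. By limma-voom and by edgeR 0 passed in either direction, DESeq2 called 0 lower and 1 higher, and at an unadjusted p under 0.05 there were 0 lower and 4 higher. The median log2 fold change was 0.04. Serping1, the C1 inhibitor gene, was singled out after its values had been seen, since every Grhl2-/- arch lay above every WT arch (4.48 ± 0.948 against 6.52 ± 0.504 CPM, log2 fold change 0.56, limma-voom FDR 0.0339).

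Of 18 substrates and downstream receptors, all tested by limma-voom, 5 fell, 0 rose and 13 did not pass, with a median log2 fold change of -0.06. At an unadjusted p under 0.05, 6 were lower and 3 higher, edgeR called 4 lower and 0 higher, and DESeq2 called 5 lower and 1 higher. The 5 became 3 without WT3-588, WT8-568, KO1-628 or KO3-604, each left out alone, and 3 without WT1-566 and WT1-568 together. The genes that fell encode cell-surface proteins of epithelia, among them subunits of a sodium channel.

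Epcam encodes a surface protein that matriptase can cleave and that stabilises claudins. It fell from 54.1 ± 6.98 to 9.80 ± 3.14 CPM (log2 fold change -2.51, limma-voom FDR 1.04e-05), and is also one of the 12 epithelial markers. Its claudin partner Cldn7 fell from 11.6 ± 1.53 to 3.82 ± 1.21 CPM (-1.63, FDR 0.000353). Cdcp1, a transmembrane protein that serine proteases shed from the cell surface, fell from 19.8 ± 2.65 to 9.90 ± 2.65 CPM (-1.03, FDR 0.00334). The call for Cdcp1 was kept in 6 of 10 fits that each left out 1 arch, with FDR of 0.00257 to 0.0132 and log2 fold changes of -1.14 to -0.95, while those for Epcam and Cldn7 were kept in all 10.

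The epithelial sodium channel, a target of prostasin, is built from 3 subunits that did not share one pattern. Scnn1g fell from 1.74 ± 0.603 to 0.233 ± 0.0745 CPM (log2 fold change -2.79, limma-voom FDR 0.00169), with 28 to 72 reads in WT and 3 to 8 reads in Grhl2-/- arches. Scnn1b fell from 1.06 ± 0.0855 to 0.337 ± 0.186 CPM (-1.76, FDR 0.00841). Scnn1a was at 0.964 and 0.933 CPM, with a log2 fold change of -0.03 (95% interval -0.45 to 0.40, FDR 0.942). The difference between the subunits was not tested. In fits that left out 1 arch the call for Scnn1g was kept in all 10, but that for Scnn1b in 2, with FDR up to 0.0238 and log2 fold changes of -1.96 to -1.56. Without WT1-566 and WT1-568, Scnn1b was at -1.76 (FDR 0.0535) and Cdcp1 at -0.99 (FDR 0.0228).

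Growth factors, receptors and a protease were among the 13 that did not pass, and those given here were named after their values had been seen. F2rl1, the gene for protease-activated receptor PAR2, was at 0.476 ± 0.231 CPM in WT and 0.123 ± 0.0676 CPM in Grhl2-/- arches (log2 fold change -1.83, limma-voom FDR 0.0421), with no overlap but only 1 to 6 reads per Grhl2-/- arch. Hgf, which encodes hepatocyte growth factor, was at a log2 fold change of -0.09 (FDR 0.572), and its receptor gene Met was at -0.16 (FDR 0.414). The urokinase gene Plau was at -0.08 (FDR 0.706) and its receptor gene Plaur at 0.64 (95% interval 0.04 to 1.23, FDR 0.151). Kdr, a growth factor receptor gene that is also one of the endothelial markers, was at 0.34 (FDR 0.0305).

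**Figure D5:**
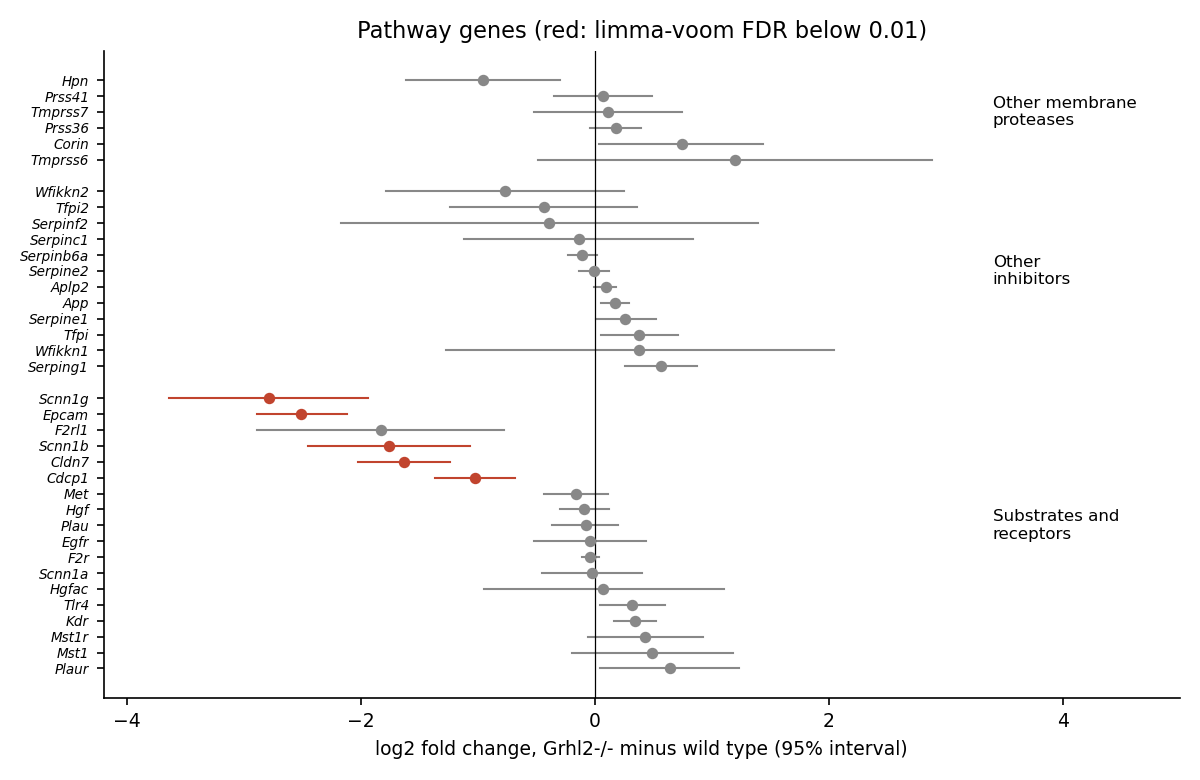
Log2 fold change, Grhl2-/- minus WT, of the 36 tested genes of the 3 pathway lists with its 95% interval from limma-voom (n = 5 per genotype), red where FDR is below 0.01. The 5 red genes are all substrates or receptors and lie between Scnn1g at -2.79 and Cdcp1 at -1.03.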

How the data were processed

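RNA of 10 first pharyngeal arches was sequenced (TruSeq Stranded Total RNA, 50 bp single-end reads, 3 lanes). The authors deposited raw counts per gene, made per the labels' processing notes with STAR and featureCounts on GRCm38, as well as edgeR 3.18.1 and limma 3.32.7 (versions of the first 2 not given in the sources used here). A second deposited table repeats the counts for 15390 genes beside the log2 fold changes, average log2 levels and adjusted p-values of the authors' own comparison, which were not used.

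Genes reaching 10 counts in 1 arch or more (14561) were TMM-normalized and tested with limma-voom (limma 3.58.1, edgeR 4.0.16, R 4.3.3), genotype as the only term, Benjamini-Hochberg adjustment and FDR below 0.01. Log2 CPM used a prior count of 0.5. Other settings tried were DESeq2 1.42.0, the quasi-likelihood test of edgeR, other scalings, filters and prior counts, FDR 0.05, the label number as replicate block, and leaving out each arch. Named were the 8 genes, pathway genes passing FDR 0.01 and the 3 closest profiles of genes with at least 50 reads on average in each genotype. The genes, lists and tests were chosen with earlier results of these data known. The labels do not state whether embryos were processed separately, so p-values measure only the spread between these arches. Exons and lengths were from GENCODE M21, promoters from RefSeq (3 of 8 matched). A planned protein comparison was not run, and 1 gene of the substrate list is not reported here. The methods were tested on simulated data.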

Additional observations from a re-analysis of the deposited data

How the results depend on the processing

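Log2 fold changes of St14, Prss8, Tmprss2, Spint1 and Spint2 kept their direction under every alternative run. Leaving out 1 arch at a time gave -3.13 to -2.73 for St14, -2.72 to -2.36 for Prss8, -3.56 to -2.58 for Tmprss2, -1.08 to -0.81 for Spint1 and -0.77 to -0.45 for Spint2. With a prior count of 2 Tmprss2 was at -2.48. The Tmprss13 ratio ranged from 146 to 301 when 1 arch was left out. The counts over all genes depended on the processing. Lower and higher genes numbered 158 and 128 in the reported fit, 553 and 520 with DESeq2, 564 and 559 at FDR 0.05, 110 to 249 and 42 to 143 without 1 arch (249 lower without KO1-588), and 90 and 19 without WT1-566 and WT1-568, an alternative chosen after seeing the data. Other inhibitors went from 0 to 1 higher with DESeq2 and at FDR 0.05, and substrates from 0 to 1 higher with both and 0 to 1 without 1 arch. Substrates that fell numbered 5, and 3 to 5 without 1 arch, and 3 without WT1-566 and WT1-568. With fewer arches or another threshold part of this follows by construction, and otherwise the cause was not tested. The numbers in the arch names were not treated as pairing the samples, since 3 of 5 same-numbered pairs, not all, correlated over 0.1 (mean 0.105, against -0.0254 and 8 of 20 for different numbers), and whether they mark shared litters was not tested. With that number as replicate block, 69 genes were lower and 60 higher, 2 substrates fell (Epcam and Cldn7) while Cdcp1, Scnn1g and Scnn1b lost their calls (FDR 0.0107, 0.0149 and 0.0455) at log2 fold changes of -0.86, -2.61 and -1.17, and St14, Prss8, Tmprss2, Spint1 and Spint2 were at -2.49, -2.42, -2.57, -0.78 and -0.60. Depth limits Tmprss4, Tmprss2 and Prss22, each at 43 reads or fewer per arch.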

Other observations

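Among arches that share the number in their names, the meaning of which the labels do not give, the log2 difference (Grhl2-/- minus WT) was negative for each of 5 genes and each number. For St14 it was -3.05 (number 566), -2.02 (568) and -2.53 (588). For Prss8 it was -3.12, -2.02 and -2.33, and for Tmprss2 -4.03, -1.83 and -2.32. For Spint1 it was -1.29, -0.66 and -0.47, and for Spint2 -0.96, -0.34 and -0.66. Each number had 1 Grhl2-/- arch and 1 or 2 WT arches. The Tmprss2 value for number 566 rests on 1 read in KO2-566, where the prior count sets much of the value. The 8 genes and the 5 substrates that fell were checked in each genotype for single arches far from the rest, leaving out groups with at most 3 reads per arch, and 0 of 22 groups had one. The check set the gap to the next arch against the range of the group (Dixon's ratio, critical value 0.71), with 1.10 flags expected by chance. It can miss 2 arches that stand apart together.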
